A study of Mus musculus with 11 samples.

Results

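Pou3f1, Otx2, Fgf5, Sox3, Zic2, Sall2 and Cldn6 are 7 genes that mouse embryonic stem (ES) cells switch on as they leave naive pluripotency. They were chosen by name, with earlier results of these data known. The set holds 5 transcription factors with the growth factor Fgf5 and the tight junction protein Cldn6. Shares of all genes set beside their counts below therefore describe the set and are no independent support. The single-cell tables listed up to 23139 genes each. All 7 genes had a column in 4 of the 5 tables, and the table for 2i/LIF listed 6 of them, without Fgf5. A filter on the mean level over the 5 libraries, 10 CPM (transcript counts over the library total, scaled alike in each library), was passed by 4 of the 7: Pou3f1, Otx2, Sox3 and Cldn6. Fgf5, Zic2 and Sall2 lay below it, and their values rest on few transcripts.

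The series holds 11 samples. Its single-cell portion was made with inDrop, which captures cells in droplets and counts each transcript by a unique molecular identifier (UMI). Wild-type E14 ES cells gave 3 of these libraries, called here the serum library (serum/LIF, tissue-culture plastic), the 2i library (2i/LIF, plastic) and the gel library (serum/LIF, agarose microgels). LIF is a cytokine that sustains ES cells, and 2i adds inhibitors of MEK and GSK3. The other 2 libraries, grown in serum/LIF on plastic, are labelled as lines with high or low overexpression of plakoglobin (Jup), a junction protein related to beta-catenin, under the constitutive CAG promoter. JupHigh and JupLow stand below for the libraries so labelled. The labels name neither the parent line of these 2 nor whether each is a single clone. The bulk portion was made with Smart-seq2 on about 1000 cells a library from the line Rex1GFPd2, with 3 libraries from gels and 3 from plastic, all in 2i/LIF.

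Cells were barcodes with 1000 UMIs or more. The serum library held 725, the 2i library 2889, the gel library 112, JupLow 1200 and JupHigh 2153, with library totals from 236195 UMIs in gel to 8284254 in 2i and median UMIs per cell from 1731.5 to 2465. No pair of libraries shared a barcode (0). Jup stood at 36.7 CPM in the serum library, 46.7 in 2i, 38.1 in gel, 37.9 (31.1 to 45.7) in JupLow and 47.8 (41.5 to 54.8) in JupHigh. The counting intervals of the last 2 overlap, and JupHigh lies close to 2i. The sources used here do not say whether transcripts of the added Jup are counted in these values. The labelled overexpression can therefore not be checked from them. The 6 markers of ES cells summed to 1705 to 2558 CPM, and each had UMIs in each library except Sox2, which has no column in the serum table and 165 to 352 CPM in the other 4 libraries. In all, 196 of 8969 genes at the mean filter lack a column in the serum table, against 28 to 34 in the others, so the tables were not built alike. Markers of primitive endoderm, the extraembryonic lineage beside the epiblast, summed to 2306 CPM in the serum library and to 264 to 626 CPM in the other 4. Gata6 has no column in the 2i table, and Pdgfra and Foxa2 were at 0 in gel. Markers of neural ectoderm summed to 55.9 to 178 CPM, of mesendoderm to 8.82 to 25.4 CPM, of trophoblast to 25.4 to 63.9 CPM and of fibroblasts to 2.90 to 39.1 CPM.

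In the embryo, pluripotent cells leave a naive state of the early blastocyst through a formative state to a primed state, from which the germ layers arise. FGF signalling through MEK and ERK drives this change, and 2i/LIF blocks it, while cells in serum/LIF move between states. Otx2, a homeodomain factor, and Pou3f1, the POU factor also called Oct6, act with Oct4 at enhancers that open in the formative state, and Fgf5 is the classic marker of the primed epiblast. Sox3 is the close relative of Sox2 in epiblast and neural progenitors, Zic2 and Sall2 are zinc finger factors, and Cldn6 forms tight junctions in early epithelia.

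In GRCm38 with the GENCODE M21 annotation, Pou3f1 lies on chromosome 4 (124656807 to 124660655, plus strand), Otx2 on chromosome 14 (48657677 to 48673819, minus), Fgf5 on chromosome 5 (98254184 to 98277030, plus), Sox3 on chromosome X (60891366 to 60893430, minus), Zic2 on chromosome 14 (122475435 to 122479852, plus), Sall2 on chromosome 14 (52311172 to 52328762, minus) and Cldn6 on chromosome 17 (23679249 to 23682446, plus). All 7 are protein coding. Pou3f1 shares 330 exonic bases with the antisense gene Gm2164, and Otx2 shares 154 with Otx2os1 on the other strand and 168 with Gm49154 on its own. Reads from the stretches shared with Gm2164 and Otx2os1 cannot be assigned with certainty, since the sources used here do not say whether counting used strand. Reads from the stretch shared with Gm49154 could not be assigned by strand in any case. The other 5 genes overlap no annotated exon of another gene.

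The upstream sequences of Fgf5 and Cldn6 are shown because both genes were lower in JupHigh and each has a single start in the RefSeq promoter table (GRCm38.p6), which covers 4 of the 7 genes. Each run ends before the first transcribed base in GENCODE, which for Cldn6 lies upstream of the RefSeq start. Capitals mark the match to a SOX motif.
Fgf5, chr5:98253934-98254183, plus strand: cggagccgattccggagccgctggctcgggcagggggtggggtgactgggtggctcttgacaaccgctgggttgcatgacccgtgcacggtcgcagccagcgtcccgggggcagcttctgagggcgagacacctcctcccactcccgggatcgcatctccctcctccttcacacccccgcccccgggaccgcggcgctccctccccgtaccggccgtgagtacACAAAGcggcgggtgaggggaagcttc
Cldn6, chr17:23679115-23679248, plus strand: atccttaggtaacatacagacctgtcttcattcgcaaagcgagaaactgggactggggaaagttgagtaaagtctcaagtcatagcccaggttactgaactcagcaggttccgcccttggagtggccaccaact

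The 250 bases before each of the 8 starts listed for Fgf5, Otx2, Sall2 and Cldn6 were searched on both strands for the octamer ATGCAAAT, the homeodomain motif TAATCC, the SOX motifs ACAATG and ACAAAG and the ETS motif CCGGAAG, none of which overlapped another at a match. Among 32851 promoter windows of the same length, 1.60% held the octamer, 6.25% TAATCC, 25.2% a SOX motif and 6.91% the ETS motif. Fgf5 held a SOX match that begins 27 bases before its start, and 1 of the 4 starts of Otx2 had a TAATCC match that begins 211 bases before it. The windows of Sall2 and Cldn6 held none of these letters. The stretch before Fgf5 was rich in G and C (70.8%, against a median of 52.4% over all windows).

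In single cells each condition is 1 library, so no difference below has a replicate check or a test, fewer expressing cells and less RNA per cell cannot be told apart in the summed values, and all intervals cover counting error only. Levels are UMIs summed over cells, as CPM with exact 95% Poisson intervals.

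Pou3f1 stood at 153 CPM (136 to 171; 308 UMIs) in the serum library, 119 (78.8 to 171; 28 UMIs) in gel, 212 (195 to 229; 609 UMIs) in JupLow, 6.26 (4.13 to 9.11; 27 UMIs) in JupHigh and 1.21 (0.579 to 2.22; 10 UMIs) in 2i. The 3 libraries with high levels are separated from JupHigh and 2i by more than an order of magnitude. Pou3f1 was 126-fold lower in 2i than in the serum library (log2 ratio -6.98, interval -8.06 to -6.08) and 24.4-fold lower in JupHigh than in the serum library (log2 ratio -4.61, -5.23 to -4.04), the widest range of the 7 genes on both counts among those with a ratio.

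Otx2 stood at 36.2 CPM (28.4 to 45.5; 73 UMIs) in the serum library, 38.1 (17.4 to 72.3; 9 UMIs) in gel, 53.9 (45.7 to 63.0; 155 UMIs) in JupLow, 13.2 (10.01 to 17.1; 57 UMIs) in JupHigh and 12.8 (10.5 to 15.5; 106 UMIs) in 2i. Among the 6 lower genes its ratio in 2i was the smallest: the log2 ratio of 2i to the serum library was -1.50 (-1.94 to -1.05), and that of JupHigh to the serum library -1.45 (-1.98 to -0.93). The levels in 2i and JupHigh did not differ beyond counting error.

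Sox3 stood at 25.8 CPM (19.2 to 33.8; 52 UMIs) in the serum library, 25.4 (9.32 to 55.3; 6 UMIs) in gel, 24.0 (18.7 to 30.3; 69 UMIs) in JupLow, 9.28 (6.63 to 12.6; 40 UMIs) in JupHigh and 3.50 (2.34 to 5.03; 29 UMIs) in 2i. It was 7.36-fold lower in 2i and 2.78-fold lower in JupHigh than in the serum library. The other 3 libraries did not differ from each other beyond counting error in its level.

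Sall2 stood at 15.9 CPM (10.8 to 22.4; 32 UMIs) in the serum library, 12.7 (2.62 to 37.1; 3 UMIs) in gel, 12.2 (8.47 to 16.9; 35 UMIs) in JupLow, 4.18 (2.47 to 6.60; 18 UMIs) in JupHigh and 2.05 (1.20 to 3.29; 17 UMIs) in 2i. It was 7.73-fold lower in 2i and 3.80-fold lower in JupHigh than in the serum library.

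Zic2, which acts in the epiblast and in the neural plate, was too rare for its order to be read. It stood at 2.48 CPM (0.805 to 5.78; 5 UMIs) in the serum library, 2.90 (1.86 to 4.31; 24 UMIs) in 2i, 1.74 (0.564 to 4.05; 5 UMIs) in JupLow and 1.39 (0.511 to 3.03; 6 UMIs) in JupHigh, with 0 UMIs in gel, where up to 15.6 CPM would be compatible with the count. No neighbours in this order differed beyond counting error, and 2-fold differences were not detectable at this depth.

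Fgf5, the secreted ligand, was rare in each library: 7 UMIs in the serum library (3.47 CPM, 1.39 to 7.15), 1 in gel (4.23 CPM, 0.107 to 23.6), 14 in JupLow (4.86 CPM, 2.66 to 8.16) and 0 in JupHigh (up to 0.856 CPM). The 2i table lists no Fgf5 column. Each column it lists holds at least 1 UMI, but the serum table, of which this is also true, lacks Sox2, so a missing column does not show a count of 0. Values for Fgf5 in 2i read it as 0 and depend on that reading. Against a floor of 3 UMIs per library Fgf5 was 4.98-fold lower in JupHigh than in the serum library (log2 ratio -2.32). The exact counting interval ends at a smaller difference, -1.62. With a minimum of 2000 UMIs the ratio was -1.04, and with 500 UMIs -3.31. Read as 0 in 2i it would be at least 9.58-fold lower there, with an interval that ends at -2.56. In JupHigh, 1 Fgf5 UMI lay in a barcode below 500 UMIs, outside the cells.

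Cldn6 stood at 78.3 CPM (66.6 to 91.5; 158 UMIs) in the serum library, 110 (71.9 to 161; 26 UMIs) in gel, 116 (104 to 129; 333 UMIs) in JupLow, 25.3 (20.8 to 30.5; 109 UMIs) in JupHigh and 3.26 (2.15 to 4.74; 27 UMIs) in 2i. It was 24.0-fold lower in 2i and 3.10-fold lower in JupHigh than in the serum library, so JupHigh lay well between the media.

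**Figure D1:**
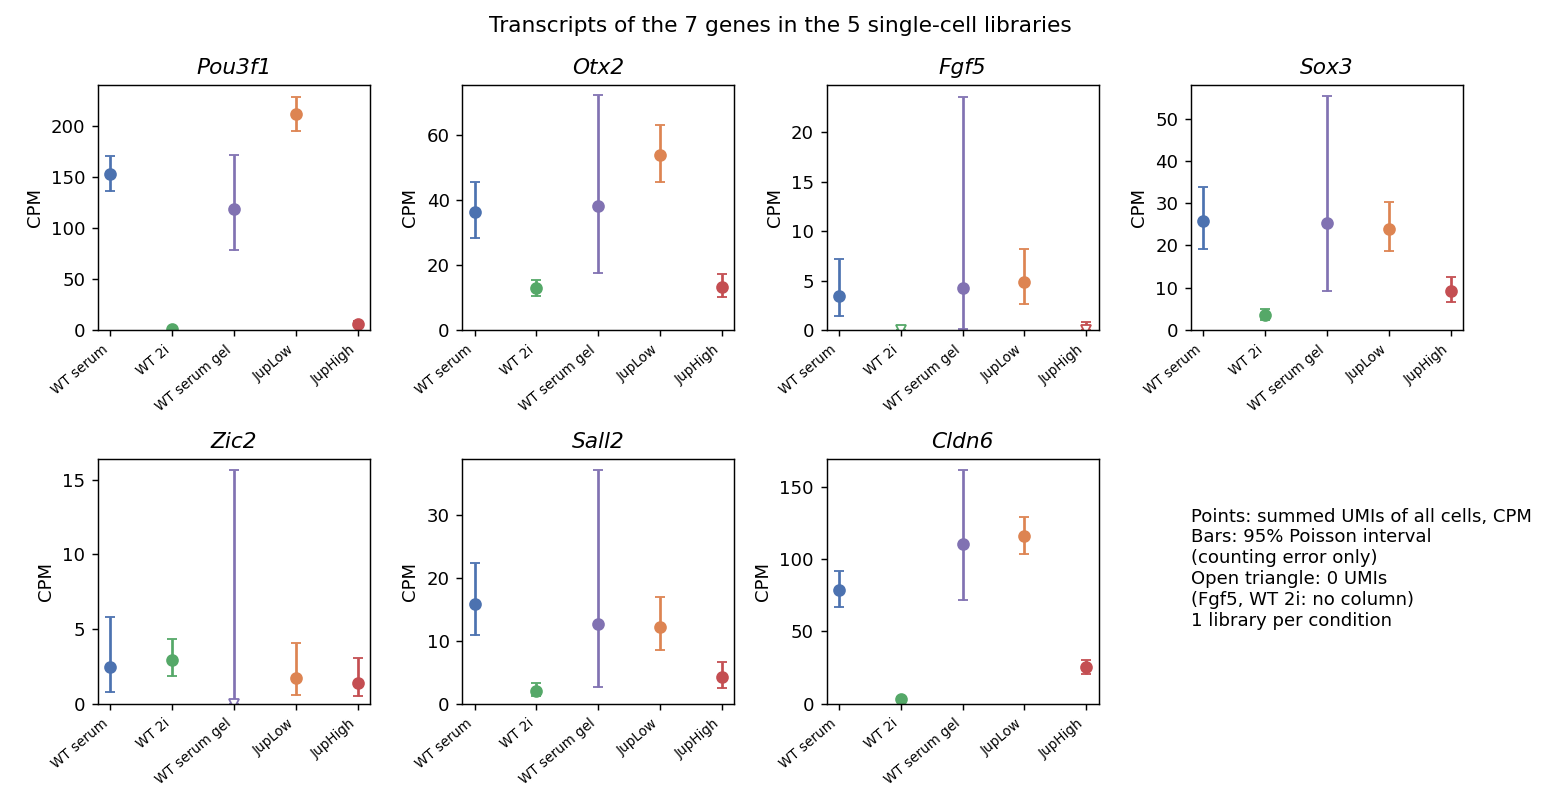
Level of each gene in CPM (vertical axis, linear, scale differs between panels) in the 5 single-cell libraries (horizontal axis; WT, wild type), with 95% Poisson intervals as bars and open triangles for 0 UMIs (for Fgf5 in WT 2i, a missing column read as 0). Of the 7 genes, 6 are low in WT 2i and JupHigh and higher in the other 3 libraries, while Zic2 is between 0 and 2.90 CPM throughout.

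Between the 2i and serum libraries, 5 of the 6 genes with a column in both tables were at least 2-fold lower in 2i, or 6 of 7 with Fgf5 read as 0, against 13.8% of 8737 genes at the mean filter. Fgf5, Zic2 and Sall2 lie below that filter, and at 5 CPM the share was 17.0%. The median log2 ratio of the 6 genes other than Fgf5 was -2.91, and that of all 8737 genes -0.04. The intervals of the 5 lower genes excluded 0, and Zic2 had a log2 ratio of 0.23 (-1.19 to 1.97). The direction for Zic2 turned with a minimum of 500 UMIs (-0.13), with every barcode (-0.19) and between 500 and 1000 UMIs (-1.47). In that last range 7 of 7 genes were lower, with Fgf5 read as 0. All 6 endoderm markers at the filter were also lower in 2i (median -5.43). Without the cells rich in these markers the count, with Fgf5 read as 0, was again 6 of 7.

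JupHigh was compared with wild type in the same medium and on the same plastic. Each side is 1 library, and the labelled overexpression cannot be told apart from the parent line, the clone or the library. The same 6 genes were at least 2-fold lower in JupHigh, against 12.5% of 8743 genes at the mean filter. Of these genes Fgf5 and Sall2 lie below that filter, and Fgf5 counts only through the floor of 3 UMIs. The median over the 7, with Fgf5 set to the floor, was -1.63, against -0.16 over all genes, and Zic2 had a log2 ratio of -0.83 (-2.81 to 1.22). With a minimum of 500 UMIs, with every barcode and between 500 and 1000 UMIs Zic2 was past 2-fold too (-1.09, -1.12 and -1.59), which makes 7 of 7. All 7 endoderm markers at the filter were lower in JupHigh (median -3.52), and without the cells rich in them the count was again 6 of 7. Since the serum table was built differently, the comparison of JupHigh with JupLow, which does not use it, was read beside it. There Pou3f1 was 33.8-fold lower in JupHigh, Cldn6 4.58-fold, Otx2 4.07-fold, Sall2 2.91-fold and Sox3 2.58-fold. Against the floor of 3 UMIs Fgf5 was 6.99-fold lower (log2 ratio -2.81), with an interval that ends at a smaller difference, -2.31. Zic2 had a log2 ratio of -0.32 (-2.30 to 1.73). These are again 6 of 7 genes, against 8.00% of 8902 genes at the filter, below which Fgf5 and Sall2 lie. Of the 7 endoderm markers at the filter 4 were lower and 1 higher. A pseudocount of 10 CPM, large beside most of these levels, left 2 of the 7 past 2-fold against the serum library and 3 against JupLow.

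JupHigh did not reach the levels of 2i for each gene. Cldn6 was 7.76-fold higher in JupHigh than in 2i (log2 ratio 2.96, 2.34 to 3.62), Pou3f1 5.19-fold higher (2.38, 1.28 to 3.59) and Sox3 2.65-fold higher (1.41, 0.68 to 2.15). Sall2 was 2.03-fold higher and Zic2 2.08-fold lower, both with intervals that include 0 (-0.02 to 2.07 and -2.64 to 0.27). Otx2 had a log2 ratio of 0.05 (-0.44 to 0.53), so a difference of 2-fold lies outside its counting interval. Fgf5 had no ratio. In all, 4 of the 6 genes with a ratio were at least 2-fold higher in JupHigh and 1 lower. Among 8901 genes at the mean filter, below which Sall2 and Zic2 lie, the shares were 5.48% and 5.55%. The call for Zic2 was lost with other UMI minimums, with a pseudocount, with median-of-ratios factors and without the cells rich in endoderm markers. That for Sall2 was lost at 500 UMIs (log2 ratio 0.93), at 2000 UMIs (0.31), with every barcode (0.78), between 500 and 1000 UMIs (0.47) and with a pseudocount of 1 CPM (0.76) or 10 CPM (0.23). With 10 CPM, Pou3f1 (0.54) and Sox3 (0.51) were below 2-fold as well, and Cldn6 (1.41) was not.

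Between JupLow and the serum library, none of the 7 genes (0) was 2-fold lower or higher, against 5.13% and 4.47% of 8739 genes. A count of 0 among 7 is near these shares. All 7 endoderm markers at the filter were lower in JupLow (median -2.22). Pou3f1 was 1.39-fold higher in JupLow (log2 ratio 0.47, 0.27 to 0.67), Otx2 1.49-fold (0.57, 0.16 to 1.00) and Cldn6 1.48-fold (0.56, 0.29 to 0.85), with intervals above 0. Those of Fgf5, Sox3, Zic2 and Sall2 included 0, and Fgf5 was past 2-fold higher at 2000 UMIs (1.20). The intervals of Fgf5 (-0.92 to 2.04), Zic2 (-2.63 to 1.61) and Sall2 (-1.12 to 0.36) reach past 2-fold. In barcodes from 500 up to 1000 UMIs alone, Sox3, Sall2 and Zic2 were at least 2-fold lower in JupLow, with log2 ratios of -1.001, -1.16 and -1.81. In these barcodes the calls of lower genes among all genes also went from 448 to 774, and the median of all genes to -0.15.

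In gel against plastic, both wild type in serum/LIF, 0 of the 6 genes with a ratio passed 2-fold, against 13.4% of 8705 genes lower and 6.78% higher in gel. Pou3f1 had a log2 ratio of -0.36 (-0.98 to 0.20), Cldn6 0.49 (-0.17 to 1.10), Otx2 0.07 (-1.11 to 1.08) and Sox3 -0.02 (-1.53 to 1.20). Fgf5 with 1 UMI and Sall2 with 3 UMIs in gel had intervals of -5.21 to 3.25 and -2.67 to 1.36, and Zic2 had no ratio. Fgf5 was past 2-fold higher in gel at 500 UMIs (1.38), at 2000 UMIs (1.48), with every barcode (1.20) and between 500 and 1000 UMIs (1.37). At 112 cells, 2-fold differences were not detectable for most of the genes. The gel table breaks off within a row, so it may hold only a portion of that library.

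**Figure D2:**
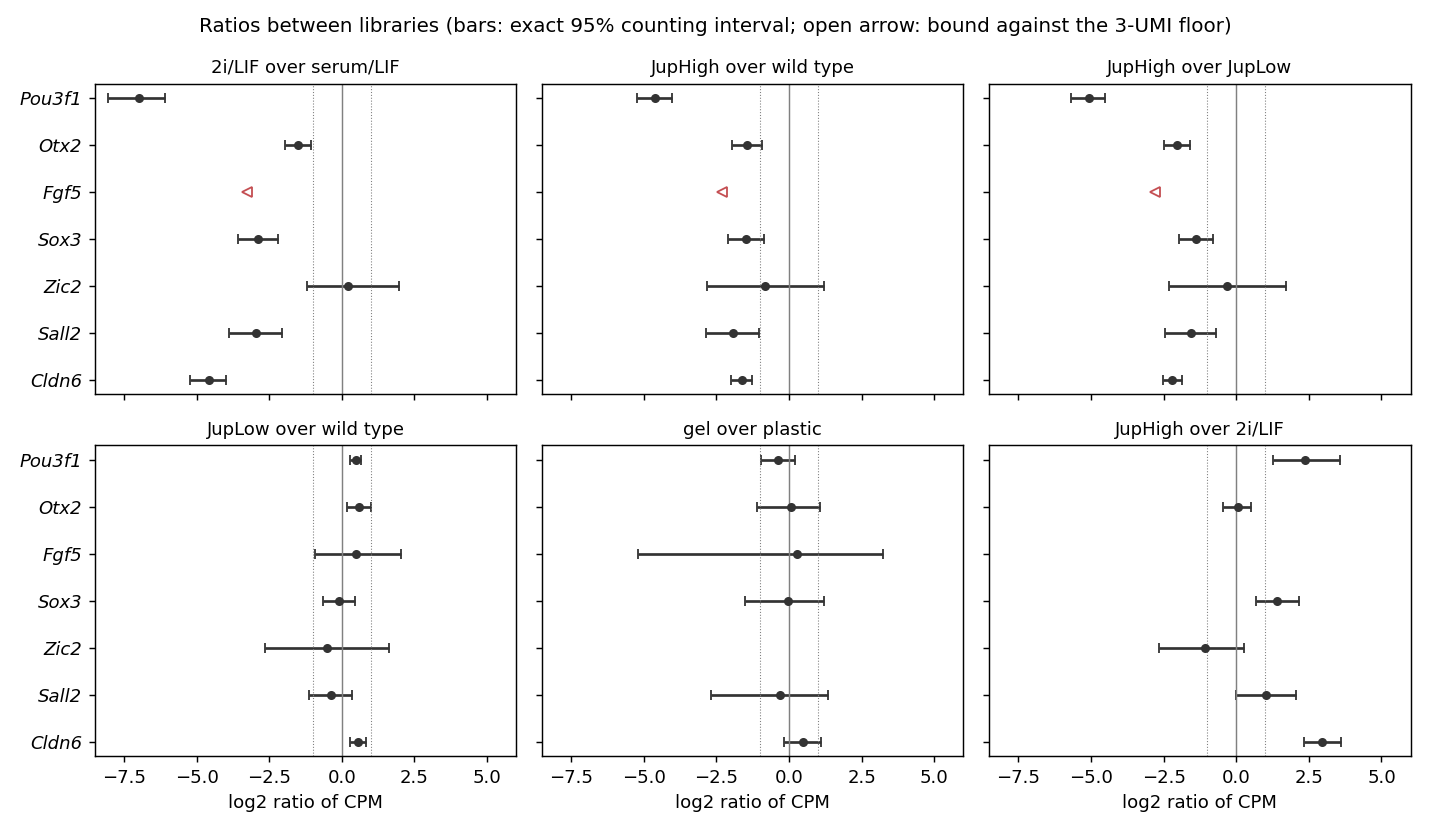
Log2 ratio of CPM (horizontal axis) for each gene (vertical axis) in 6 comparisons of single-cell libraries. Bars are exact 95% counting intervals, dotted lines mark 2-fold, and open arrows mark ratios against a floor of 3 UMIs. In the upper 3 panels 6 of the 7 genes lie left of the lower 2-fold line (in the first, with the missing Fgf5 column read as 0), and in the panels of JupLow over wild type and gel over plastic none passes either line.

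A list of 23 other formative and primed genes was read in the same comparisons. Of its 17 members at the mean filter, 11 were at least 2-fold lower and 1 higher in 2i than in the serum library, with a median log2 ratio of -1.80, against 13.8% and 9.10% of all genes and a median of -0.04. Dnmt3b, a DNA methyltransferase, went from 555 to 150 CPM (log2 ratio -1.89, -2.00 to -1.77), Utf1 from 450 to 129 CPM (-1.80, -1.93 to -1.67), Dnmt3l, the cofactor of these methyltransferases, from 228 to 26.4 CPM (-3.11, -3.35 to -2.88) and the kinase gene Pim2 from 102 to 12.4 CPM (-3.03, -3.39 to -2.68). In JupHigh against the serum library, 4 of the 17 were lower and 0 higher, against 12.5% and 6.54% of all genes, and the median of -0.22 lay near that of all genes (-0.16).

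The 4 were Pim2 at 23.9 CPM in JupHigh (log2 ratio -2.09, -2.44 to -1.74), Foxp1 at 48.0 against 97.1 CPM (-1.02, -1.31 to -0.73), the methyltransferase gene Dnmt3a at 33.9 against 107 CPM (-1.65, -1.97 to -1.34) and the growth factor gene Fgf15 at 7.42 against 22.3 CPM (-1.59, -2.29 to -0.90). Dnmt3l was at 351 CPM in JupHigh, above its 228 CPM in the serum library (log2 ratio 0.62, 0.47 to 0.77). Grhl2, an epithelial transcription factor singled out after its values were seen, was at 42.6 CPM in the serum library, 35.1 in JupLow, 32.7 in JupHigh and 1.57 in 2i. In gel it was at 12.7 CPM (3 UMIs), with a log2 ratio to the serum library of -1.75 (-4.05 to -0.15). Between JupHigh and 2i, 10 of the 17 were at least 2-fold higher in JupHigh and 1 lower, with a median of 1.22 against -0.10 over all genes, of which 5.48% were higher and 5.55% lower. Against JupLow, 4 of the 17 were lower in JupHigh and 0 higher, against 8.00% and 2.83% of all genes.

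**Figure D3:**
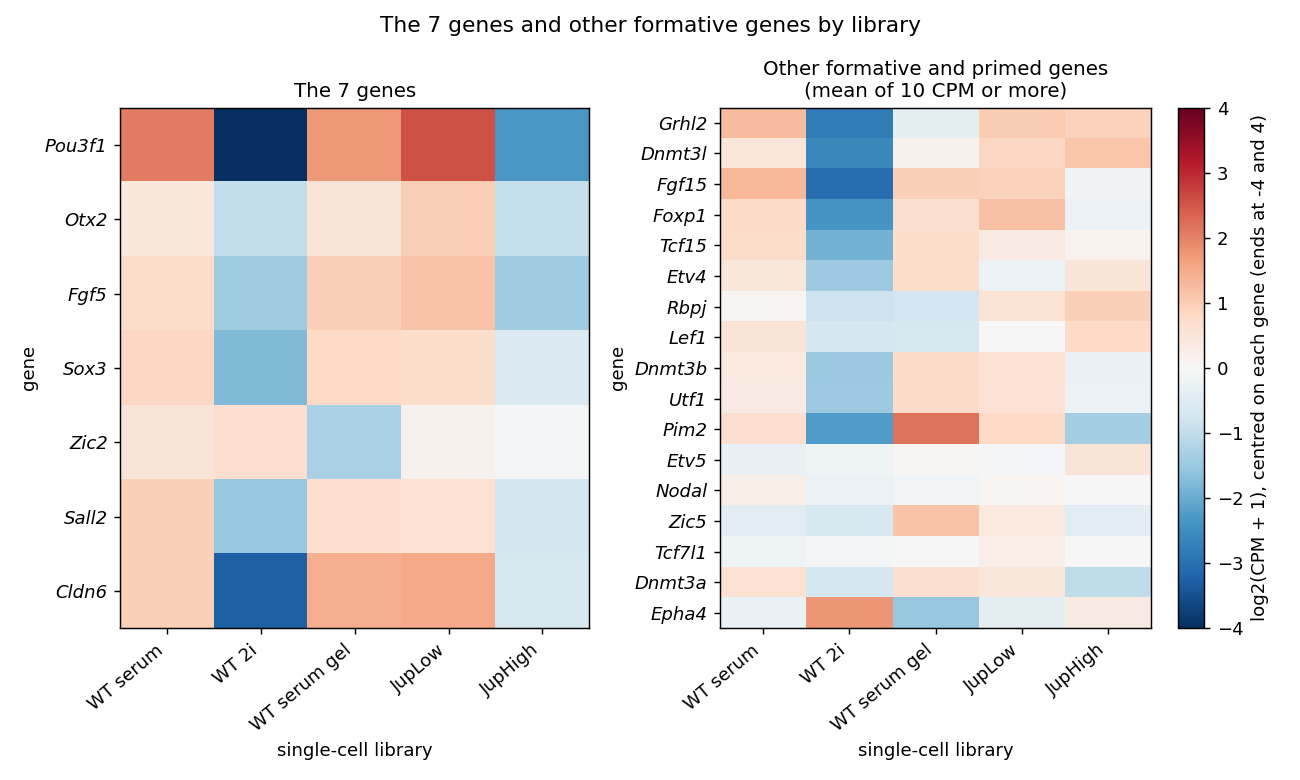
Colour gives log2(CPM + 1) centred on each gene's mean over the 5 single-cell libraries (columns), for the 7 genes (left) and the 17 other formative and primed genes at a mean of 10 CPM or more (right, ordered by JupHigh minus WT 2i). On the left JupHigh and WT 2i both lie below the gene's mean for 6 genes, with the missing Fgf5 column in WT 2i read as 0. The shade is not the same in both, as for Cldn6 (25.3 CPM in JupHigh against 3.26 in WT 2i). On the right Grhl2 (32.7 against 1.57 CPM) and Dnmt3l (351 against 26.4 CPM) are high in JupHigh and low in WT 2i.

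Genes of the FGF pathway and its feedback were listed as 17 members, of which 13 passed the mean filter. In 2i against the serum library, 9 were at least 2-fold lower and 1 higher (median -2.23), against 13.8% and 9.10% of all genes. Fgfr2, an FGF receptor, went from 922 to 134 CPM, Spred1, an inhibitor of RAS signalling, from 145 to 30.8 CPM, and Dusp6, an ERK phosphatase, from 112 to 10.3 CPM, while Fgf4, the ligand of naive cells, went from 24.3 to 93.8 CPM. Fgfr2 was at 178 to 258 CPM in gel, JupLow and JupHigh, so its level in the serum library stood apart from the other 4 libraries.

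In JupHigh against JupLow, 4 of the 13 were lower and 0 higher (median -0.41), against 8.00% and 2.83% of all genes and a median of -0.11. Dusp6 went from 104 CPM in JupLow to 31.8 in JupHigh (log2 ratio -1.71, -2.02 to -1.42), the ERK phosphatase gene Dusp4 from 27.4 to 5.10 CPM (-2.43, -3.18 to -1.73) and the receptor gene Fgfr1 from 69.8 to 33.6 CPM (-1.05, -1.37 to -0.74). Fgf15, on both lists, went from 16.7 to 7.42 CPM (-1.17, -1.86 to -0.49). In JupHigh against the serum library, 4 of 13 were lower and 0 higher, against 12.5% and 6.54% of all genes, and the median of -0.10 was not below that of all genes (-0.16). Between JupHigh and 2i, 8 were higher in JupHigh and 1 lower (median 1.44), against 5.48% and 5.55% of all genes.

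Close relatives of the 7 genes were read in the same way. Of 18 listed POU, OTX, SOX, ZIC, SALL and claudin genes, 8 passed the mean filter with a column in both tables for 2i over the serum library, and 2 were lower and 1 higher (median -0.18), against 13.8% and 9.10% of all genes. Cldn7, another claudin, was at 32.2 CPM in the serum library, 76.2 in gel, 30.2 in JupLow, 2.78 in JupHigh and 0.362 in 2i. Its log2 ratio of JupHigh to JupLow was -3.44 (-4.45 to -2.56). Sall3 had 1.49 CPM (3 UMIs) in the serum library, 28.0 in 2i and 10.7 in JupHigh, among these libraries the reverse order to Sall2. It had 21.2 CPM in gel (5 UMIs) and 2.08 CPM in JupLow (6 UMIs), so the order over all libraries was not reversed.

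Naive pluripotency genes stood the other way. Of 15 listed, 14 passed the mean filter, and 12 were at least 2-fold higher and 1 lower in 2i than in the serum library, against 9.10% of all genes higher (median 2.19). In JupHigh against the serum library 11 were higher and 0 lower, against 6.54% (median 2.19). Zfp42 (Rex1) went from 137 CPM in the serum library to 475 in 2i and 739 in JupHigh, Nanog from 82.8 to 539 and 450, and Klf2 from 90.2 to 500 and 428. Tdgf1, the coreceptor of Nodal, was the 1 gene lower in 2i, at 130 against 291 CPM. In JupLow 2 of the 14 were higher and 0 lower than in the serum library, against 4.47% and 5.13% of all genes (median 0.20, against -0.00084 over all genes).

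The mean centred profile of the 7 genes, as log2(CPM + 1) over the 5 libraries, was compared with 8965 other genes at the mean filter by Euclidean distance. The nearest were Baz1a, a subunit of chromatin remodellers, at a distance of 0.18, Itgb1, an integrin subunit, at 0.31, Lmo4, a LIM-only transcription cofactor, at 0.34, Farp1 at 0.34, and Cited2, a transcriptional coregulator, at 0.34. Baz1a was at 130 CPM in the serum library, 20.4 in 2i, 127 in gel, 161 in JupLow and 40.4 in JupHigh. Itgb1 ran from 50.2 CPM in 2i to 327 in JupLow. Of the 7 genes themselves, Sox3 (0.57), Sall2 (0.59) and Fgf5 (0.67) lay nearest to their mean, and Pou3f1 (3.40), which ranged more widely, and Zic2 (3.42) lay farthest. Each of the 7 is itself part of that mean, so its distance is no independent measure of likeness. For Fgf5 the missing 2i column was read as 0 here too. The profile has 5 points that share the libraries with each candidate.

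In single cells the transcripts were sparse. After each cell was thinned to 1000 UMIs, which left out no cell, 23.0% of cells of the serum library (20.02 to 26.3%, exact binomial interval) held a UMI of any of the 7 genes, against 21.4% in gel (14.2 to 30.2%), 27.7% in JupLow (25.2 to 30.3%), 5.90% in JupHigh (4.94 to 6.98%) and 2.04% in 2i (1.56 to 2.63%). The same 2 libraries are low as in the summed counts. UMIs of 2 or more of the genes were found together in 2.62% of cells of the serum library, 4.50% in JupLow and 0.325% in JupHigh, and in 0 of 2889 cells in 2i. At this depth that allows a share of up to 0.104% at 3 counts and 0.128% by the exact interval, a limit on cells with such UMIs after thinning and not on cells that express the genes. The shares depend on the depth of thinning. At 2000 UMIs, which kept 428 cells of the serum library, 45 of gel, 674 of JupLow, 958 of JupHigh and 1662 of 2i, any of the 7 genes was found in 40.9%, 42.2%, 45.8%, 9.92% and 5.54% of them. There 2 or more of the genes were found in 8.64% of cells of the serum library, 15.6% in JupLow, 0.939% in JupHigh and 0.181% in 2i (3 cells, 0.0372 to 0.527%), so the 2 libraries are low at both depths.

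Pou3f1 was found in 12.6% of thinned cells of the serum library (10.2 to 15.2%), 15.5% in JupLow (13.5 to 17.7%), 7.14% in gel (3.13 to 13.6%), 0.79% in JupHigh (0.461 to 1.26%) and 0.069% in 2i (0.00838 to 0.25%). Without thinning these shares were 25.5%, 27.5%, 14.3%, 1.25% and 0.346%. A single cell held at most 6 Pou3f1 UMIs in the serum library and 10 in JupLow, while the 27 UMIs of JupHigh lay in 27 cells and the 10 of 2i in 10. Cldn6 was found in 5.93% of cells of the serum library, 9.33% in JupLow, 6.25% in gel, 2.83% in JupHigh and 0.242% in 2i.

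Barcodes below 500 UMIs, which can hold free RNA as well as small cells, carried these transcripts too. There Pou3f1 stood at 122 CPM in the serum library, 132 in JupLow and 5.18 in JupHigh, and Cldn6 at 124, 157 and 43.2 CPM. The order of these libraries was the same as in the cells. In gel both genes stood at 60.3 CPM (11 UMIs each). Cldn6 in gel thus lay below the serum library there and above it in the cells. For Otx2 the order of the serum library (49.3 CPM) and JupLow (48.4 CPM) was the reverse of that in the cells, and so it was for Fgf5 (6.45 and 4.89 CPM). No cell type known to lack these genes was at hand to measure the background of free RNA, and its part in the shares was not tested. The 2i table holds 1 barcode below 500 UMIs, so no such value is given there.

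**Figure D4:**
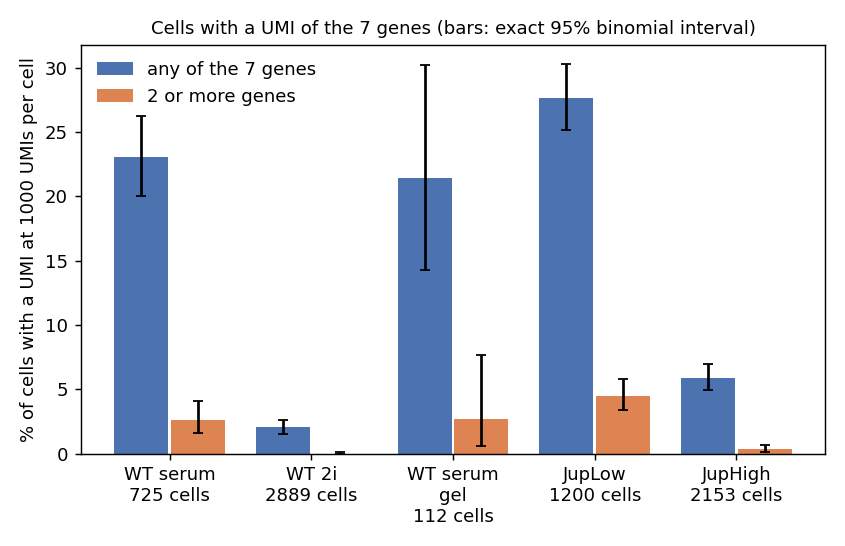
Share of cells (vertical axis, percent) with a UMI of any of the 7 genes, and of 2 or more of them, after thinning to 1000 UMIs per cell, in the 5 single-cell libraries (cell numbers below), with exact 95% binomial intervals. The bars for any gene stand at 21.4 to 27.7% in the 3 libraries with high levels, at 5.90% in JupHigh and at 2.04% in WT 2i.

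In JupLow, cells with a UMI of another of the 7 genes held Pou3f1 more often (24.4% of 193 cells, 18.5 to 31.0%) than cells without (13.8% of 1007 cells, 11.7 to 16.1%). At this depth of 1000 UMIs the intervals of each other gene overlapped, as for Sox3 (2.81%, 1.29 to 5.27%, against 1.36%, 0.707 to 2.37%). Thinned to 2000 UMIs, which kept 674 of the 1200 cells, the Pou3f1 shares were 42.9% (36.3 to 49.8%) and 19.8% (16.2 to 23.7%). Those of Sox3 were 7.54% (4.84 to 11.1%) and 1.08% (0.296 to 2.75%), and those of Cldn6 27.2% (21.5 to 33.4%) and 17.4% (14.0 to 21.3%). For Otx2, Fgf5, Zic2 and Sall2 the intervals overlapped at this depth too. In JupHigh at 2000 UMIs, Otx2 was found in 9.86% of 71 cells with another of the genes (4.06 to 19.3%). It was found in 2.71% of the 887 cells without (1.74 to 3.999%), so these intervals lay barely apart. For the other genes in JupHigh at 2000 UMIs, and for each gene there at 1000 UMIs, the intervals overlapped. In the serum library the Pou3f1 shares at 1000 UMIs were 17.4% (10.3 to 26.7%) and 11.8% (9.43 to 14.6%), with intervals that overlap. In the serum library, 2i and gel the intervals of each gene overlapped at both depths. Cells are not replicates, and these shares describe 1 library each.

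The order of mean naive transcripts in cells with and without the 7 genes was not the same in each library, and this was not tested. At 1000 UMIs, the 332 JupLow cells with a UMI of any of the 7 held 332 UMIs of the 15 naive genes, and the cells without any held 1.21 each on average. The means with and without were 1.11 and 1.11 in the serum library, 2.00 and 1.26 in gel, 3.49 and 2.95 in 2i and 3.73 and 3.25 in JupHigh. At 2000 UMIs they were 2.14 and 3.01 in JupLow, 2.15 and 2.24 in the serum library, 2.95 and 2.69 in gel, 7.42 and 6.37 in 2i and 7.47 and 6.89 in JupHigh. These means carry no measure of spread. The exact binomial intervals of the share of cells with a naive UMI, with against without the 7 genes, overlapped in each library at both depths. Such overlap does not show that the shares are equal. At 1000 UMIs the shares were 54.2% (48.7 to 59.7%) against 56.5% (53.1 to 59.8%) in JupLow and 59.3% against 61.3% in the serum library. They were 96.1% (91.05 to 98.7%) against 90.0% (88.6 to 91.25%) in JupHigh, where the overlap was narrow. In 2i they were 96.6% (88.3 to 99.6%) against 89.3% (88.1 to 90.4%). In gel they were 75% (53.3 to 90.2%) against 58.0% (47.0 to 68.4%), and at 2000 UMIs gel had 19 cells with the genes.

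The cells with UMIs of at least 3 primitive endoderm markers differed in 2 of the genes beyond their counting intervals. In the serum library, 116 such cells held Cldn6 at 150 CPM (115 to 192) and the other 609 cells at 59.5 CPM (48.1 to 72.7). Otx2 went the other way, at 11.9 CPM (3.86 to 27.7) against 42.6 CPM (33.1 to 54.0). In JupLow, 71 such cells held Cldn6 at 231 CPM (175 to 300) against 105 CPM (92.9 to 118), and Otx2 at 8.12 CPM (0.983 to 29.3) against 58.1 CPM (49.3 to 68.1). Pou3f1 stood at 114 CPM (84.1 to 151) against 163 (144 to 184) in the serum library and at 203 (151 to 268) against 212 (195 to 231) in JupLow.

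These marker-rich cells numbered 10 in 2i, 4 in gel and 18 in JupHigh. They were deeper than the others in the serum library (median 3010 against 2239 UMIs) and in JupLow (3296 against 2147 UMIs). The markers were counted without thinning. The summed endoderm markers were 2306 CPM in the serum library and 315 CPM in JupHigh, with 12 of 12 markers detected in both. Leaving such cells out moved the log2 ratio of Cldn6 in JupHigh over the serum library from -1.63 to -1.22.

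**Figure D5:**
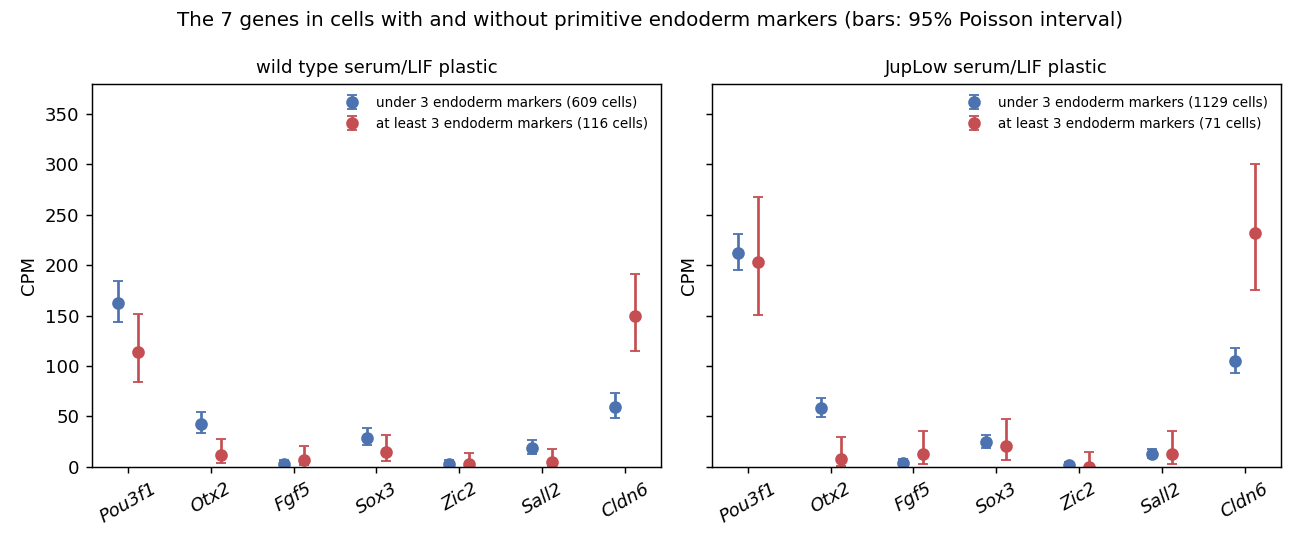
Level in CPM (vertical axis) of the 7 genes (horizontal axis) in cells with at least 3 (red) and under 3 (blue) primitive endoderm markers, in the serum library and in JupLow, with 95% Poisson intervals. In both libraries Cldn6 is higher in the red group (150 against 59.5 CPM, and 231 against 105 CPM) and Otx2 lower.

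In bulk, where cells in 2i/LIF in gels were compared with cells in 2i/LIF on plastic, reads allowed little. Values were given for 3 of the 7 genes. None were given for the other 4, Pou3f1, Fgf5, Sox3 and Zic2, so these could not be analysed in bulk. A missing value does not show whether a gene had reads. The values are deposited counts scaled by 1 factor per library, from 637235 to 2583256 reads each, and where nothing says that the libraries came from separate cultures, p-values measure the spread between these libraries only. Otx2 had values of 3.39, 4.91 and 1.37 in gel and 3.32, 1.17 and 1.52 on plastic, from 1 to 8 reads per library. Sall2 had 5.64, 3.68 and 2.75 in gel and 2.91, 1.17 and 3.04 on plastic, from 2 to 7 reads. For both genes the groups overlap.

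Cldn6 had values of 4.51, 4.91 and 4.12 in gel, a mean of 4.52 ± 0.394 (SD, n = 3), from 3 to 4 reads per library. On plastic it had 4.99, 8.22 and 10.6, a mean of 7.94 ± 2.83 (SD, n = 3), from 7 to 21 reads. The gel values all lie below the plastic values, as for 19.3% of 12583 genes with a read, but the closest pair is barely apart. An exact two-sided permutation test gave p = 0.10 for Cldn6, the smallest that 3 libraries against 3 allow, and p = 0.40 for Otx2 and 0.30 for Sall2. None of the 3 genes passed edgeR's filter for expression, so 0 of the 7 were tested by limma, which called 36.9% of 7878 genes at an adjusted p under 0.05. Without that filter, the limma estimate for Cldn6 was -0.70 in log2 (SE 0.46, adjusted p = 0.30), Sall2 0.68 (SE 0.60, adjusted p = 0.45) and Otx2 0.54 (SE 0.67, adjusted p = 0.61), and at an unadjusted p of 0.05 also 0 of the 3 passed.

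Of the 23 other formative and primed genes, 10 were tested in bulk, and limma with Benjamini-Hochberg adjustment called 4 higher and 1 lower in gel, against 18.3% and 18.6% of all genes. The median log2 fold change of the 10 was 0.42, and that of all tested genes -0.02. Utf1 was at 50.2 ± 12.5 in gel and 15.6 ± 1.90 on plastic (SD, n = 3 each), a log2 change of 1.63 (SE 0.24, adjusted p = 5.3e-05 by limma). Tcf7l1, Etv5 and Rbpj were the other genes called higher, and Nodal was called lower (-0.74, SE 0.19, adjusted p = 0.0049 by limma). Among the relatives, 5 of 8 tested genes were called higher, among them Sox2, Sall1, Sall3 and Cldn4, and Sall4 was called lower. Sox2 was at 54.4 ± 15.1 in gel and 18.3 ± 2.86 on plastic (SD, n = 3 each), a log2 change of 1.51 (SE 0.24, adjusted p = 1.2e-04 by limma). Of the FGF genes 5 were tested, with 2 called higher (Etv5 and Spred1) and 0 lower, and of the 15 naive genes 7 were higher and 3 lower.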

How the data were processed

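The 5 single-cell files hold whole UMI counts per gene and barcode, as deposited, without normalization. The bulk file holds a signal, which the authors appear to have made by dividing counts by a library factor, judging by the deposited numbers: 100% of them are whole multiples (within 0.01 reads) of the library's smallest value, so whole reads were recovered. The submitters' processing notes name FastQC, STAR, featureCounts, DESeq2 and Scanpy and the builds mm10 and GRCm38, with no versions or roles. Strand setting and barcode filter are not given in the sources used here.

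A cell was a barcode of 1000 UMIs or more; no upper limit or doublet caller was applied. Barcodes that begin and end with runs of at least 8 G, columns without a gene name (0.00509% to 0.499% of UMIs) and the cut last row of the gel table (16994 of 21938 values) were left out. Summed UMIs were scaled to CPM (Python 3.11.15, scipy 1.17.1), and ratios got exact conditional binomial intervals. With 1 library per condition, a gene past 2-fold counts as different. A library at 0 UMIs was set to a floor of 3 UMIs. The missing Fgf5 column of the 2i/LIF table was read as 0.

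Bulk groups were compared with limma 3.58.1 (R 4.3.3) with an intensity trend on log2(value + 0.5), which understates the change of low genes, for genes passing edgeR's filterByExpr, with Benjamini-Hochberg adjustment at 0.05. edgeR 4.0.16 (quasi-likelihood) and DESeq2 1.42.0 were alternatives on these reads. Replicate pairs gave a chi-square of 1.58 to 2.20 per degree of freedom, so no library repeated another within sampling noise. Bulk columns with a plastic mark in their names also carry a gel mark and were taken as plastic. Both steps were tested on simulated data.

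The 7 genes and all lists were chosen with earlier results of these data known. The lists are naive pluripotency, other formative and primed genes, FGF ligands, receptors and ERK feedback, family relatives, and markers of ES cells, primitive endoderm, neural ectoderm, mesendoderm, trophoblast and fibroblasts. Named genes are all 7, then per list up to 4 genes past 2-fold with the highest CPM, and the 5 genes nearest in profile. Exceptions are said in the text or come from the bulk calls. The values of 1 listed gene are not reported here. Alternatives changed the UMI minimum, the scaling, the pseudocount, the cells kept, the depth of thinning, the bulk test, its filter and the libraries.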

Additional observations from a re-analysis of the deposited data

How the results depend on the processing

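The counts of the 7 genes at least 2-fold lower in 2i/LIF than in serum/LIF kept within 1.5 times of 6 (with the missing Fgf5 column read as 0) under each of the 11 alternatives. In JupHigh against wild type and against JupLow, a pseudocount of 10 CPM left 2 and 3 genes instead of 6, and the other 10 alternatives gave counts within 1.5 times. With a pseudocount of 1 CPM, 1 gene was lower in gel than on plastic instead of 0. In JupLow against wild type, barcodes from 500 up to 1000 UMIs alone, a setting chosen after seeing the data, gave 3 genes instead of 0. In JupHigh against 2i/LIF the 1 lower gene, Zic2, was no longer 2-fold lower (0 genes) with at least 500 UMIs, at least 2000 UMIs, every barcode, median-of-ratios factors, a pseudocount of 1 or 10 CPM, without cells rich in endoderm markers, and in barcodes from 500 up to 1000 UMIs. The cause was not tested. Of 438 recomputed log2 ratios of single genes, 401 stayed within the counting interval of the main value and no called one changed sign (0 did). Of 40 shares of cells with a UMI, 26 left the interval of their value at 1000 UMIs when cells were thinned to 2000, as did 21 of 35 without thinning and 1 of 35 with another thinning seed. TMM scaling moved the median of all genes from -0.04 to 0.10 in 2i/LIF against serum/LIF and from -0.16 to 0.03 in JupHigh against wild type, where it also moved the share of lower among all 2-fold calls from 65.6% to 55%. Median-of-ratios factors moved that share from 73.9% to 61.2% for JupHigh against JupLow and from 50.3% to 37.5% for JupHigh against 2i/LIF. In bulk, the counts of genes called ranged from 2188 (DESeq2) to 3158 (edgeR), with 2361 to 2833 when 1 library was left out. None of the 7 genes passed the filter (0 tested) in any of the fits that used one, so their count of 0 calls there says nothing of them. The fit without a filter tested 3 of them and called 0 (0 also at an unadjusted p under 0.05).

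Gel and plastic libraries share replicate numbers, but same-numbered libraries did not deviate together (correlations of -0.05, 0.02 and 0.02), so the numbers were not taken as pairs. With the replicate block 2988 genes were called, and 0 of the 7 were tested. Depth limits Fgf5, Zic2 and the gel library in single cells, and the 3 genes with values in bulk.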

Other observations

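Some relatives of the 7 genes stood higher in the gel library than on plastic, both wild type in serum/LIF. Of 8 at the mean filter, 3 were at least 2-fold higher in gel and 0 lower, against 6.78% and 13.4% of 8705 genes. Zic5 had a log2 ratio of 1.68 (0.39 to 2.84), and Cldn4 lay the other way at -0.93 (-3.26 to 0.70). Cldn3, which lies below the filter, was at 29.6 CPM in gel and 0.991 on plastic (7 and 2 UMIs, log2 ratio 4.90, interval 2.51 to 8.20). Sall3 was at 21.2 and 1.49 CPM (5 and 3 UMIs, 3.83, 1.47 to 6.52), and Cldn7 at 76.2 and 32.2 CPM (18 and 65 UMIs, 1.24, 0.40 to 2.01). The ratios of Cldn3 and Sall3 thus rest on few transcripts. In bulk, in 2i/LIF, Sall3 was at 22.6 ± 0.673 in gel and 7.75 ± 3.12 on plastic (SD, n = 3 each; log2 fold change 1.55, SE 0.34, adjusted p = 0.0016 by limma). The bulk groups overlapped for Cldn3, at 9.32 ± 7.02 in gel and 9.70 ± 1.23 on plastic (SD, n = 3 each; log2 fold change -0.38, SE 0.51, adjusted p = 0.64 by limma without the filter). Pim2 was at 288 CPM in gel and 102 on plastic in serum/LIF (interval of the log2 ratio 1.09 to 1.91), and in bulk at 13.4 ± 3.30 and 19.4 ± 3.22 (log2 fold change -0.53, SE 0.30, adjusted p = 0.17 by limma). These genes were chosen after their values were seen.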
